A study of Homo sapiens with 12 samples.

Results

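MicroRNAs are made and put to use by a small set of proteins, and 10 of their genes are described here across LNCaP cells that received 1 of 3 microRNAs or a scramble microRNA. The members were taken by gene symbol from the platform annotation: DROSHA, DGCR8 and XPO5 of the nuclear steps, DICER1 and TARBP2 of the cytoplasmic cut, the Argonautes AGO1, AGO2 and AGO3, and the silencing scaffolds TNRC6A and TNRC6B. The annotation gave 16 probe sets for 8 of these genes, out of 22215 probe sets on the array. For 6 genes (DICER1, DROSHA, TARBP2, AGO1, AGO3 and TNRC6B) 11 probe sets carry that symbol alone, out of 11963 genes with such a probe set. The other 5 probe sets carry a second symbol, MIR1306 beside DGCR8 on 4 and CASC7 beside AGO2 on 1, so they are given by probe set and not as the gene. XPO5 and TNRC6A were not analysed here.

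LNCaP is an established prostate cancer line that responds to androgen, labelled as early stage. The labels give transfection with miR-130a, with miR-203, with miR-205 or, in the control group, with a scramble microRNA, so all 4 groups were transfected. Each group has 3 arrays, which the labels call biological replicates, 12 arrays in all. The labels leave the transfected form, its dose and the time to harvest unstated, and 1 cell line is the only model. The p-values rest on the spread between replicates within groups, pooled over all 4 groups of 3 arrays.

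A microRNA gene is first copied into a long primary transcript. In the nucleus the Microprocessor, the nuclease Drosha with its RNA-binding partner DGCR8, cuts out a hairpin, and Exportin-5 carries it to the cytoplasm. There Dicer, with TARBP2 as a partner, removes the loop, and 1 strand is loaded into an Argonaute protein. The Argonaute pairs with messenger RNAs through the microRNA seed (bases 2 to 8) and calls in a GW182 protein such as TNRC6B, which recruits the enzymes that shorten poly(A) tails.

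The hairpins of the 3 transfected microRNAs show the kind of RNA on which Drosha and Dicer act. They are from RefSeq (GRCh38.p14), 5′ to 3′, with the mature strands matched in the table in capitals. MIR130A lies at chr11:57641198-57641286, MIR203A at chr14:104117405-104117514 and MIR205 at chr1:209432133-209432242, all on the plus strand. No mature entry was available for hsa-miR-130a-3p, so only hsa-miR-130a-5p is in capitals in MIR130A. The capitals do not say which strand of a hairpin an Argonaute uses.
MIR130A: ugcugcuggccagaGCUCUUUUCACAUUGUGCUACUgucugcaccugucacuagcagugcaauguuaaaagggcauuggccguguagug
MIR203A: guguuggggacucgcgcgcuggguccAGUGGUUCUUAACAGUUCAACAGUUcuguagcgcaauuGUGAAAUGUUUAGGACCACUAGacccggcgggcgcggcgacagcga
MIR205: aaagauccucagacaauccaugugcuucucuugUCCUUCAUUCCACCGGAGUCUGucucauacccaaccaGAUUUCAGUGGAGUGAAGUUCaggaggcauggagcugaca

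The mature strands miR-203a-3p and miR-205-5p are the ones best known from each hairpin. Their seeds, in capitals, are different, and each stands for the sites that an Argonaute carrying that strand pairs with.
hsa-miR-203a-3p: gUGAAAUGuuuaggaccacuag
hsa-miR-205-5p: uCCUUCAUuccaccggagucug

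The values are the deposited log2 values, and a difference of 1 is a change of 2-fold. Differences were tested with limma over all 11369 probe sets that lay above their array's median on at least 3 arrays, and passed when the Benjamini-Hochberg adjusted p was under 0.05. Errors after a difference are the standard error (SE) of that fit with 3 arrays per group, and intervals are 95% confidence intervals of single differences. All 6 genes were bright enough to be tested, and 12 of the 16 probe sets lay above the array median on all 12 arrays. The probe sets left out were 3 of DICER1, at or near the lowest value of the table (2.36) on nearly every array (highest 2.52), and 1 annotated to DGCR8. Every gene except DICER1 rests on a single probe set, so the genes have no second measurement here. A gene is called by its brightest probe set, and levels are not compared between genes.

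In limma's F-test over all 4 groups 5 of the 6 genes passed, and AGO1 did not (adjusted p = 0.105), beside 56.4% of all tested probe sets. Against scramble, 2 of 6 changed with miR-130a, 4 with miR-203 and 3 with miR-205. Among all tested probe sets these shares were 21%, 33.6% and 23.8%, so the counts rest on few genes and are not read as a property of the set. Here and below the shares count every tested probe set, several for some genes, while a gene counts once by its brightest. The 3 arrays of the microRNA had no overlap with the scramble arrays for 2, 5 and 3 of the 6 genes, beside 37.5%, 42% and 37.1% of all tested probe sets. DICER1 was higher with each microRNA. DROSHA was lower with miR-203 and miR-205, TARBP2 lower with miR-205, AGO3 higher and AGO1 lower with miR-203, and TNRC6B lower with miR-130a. The median difference over the 6 genes was -0.02 with miR-130a, -0.20 with miR-203 and 0.01 with miR-205, beside medians of 0.00, 0.01 and 0.01 over all tested probe sets. The 3 comparisons share the scramble arrays, so a high or low scramble array moves all of them together.

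**Figure D1:**
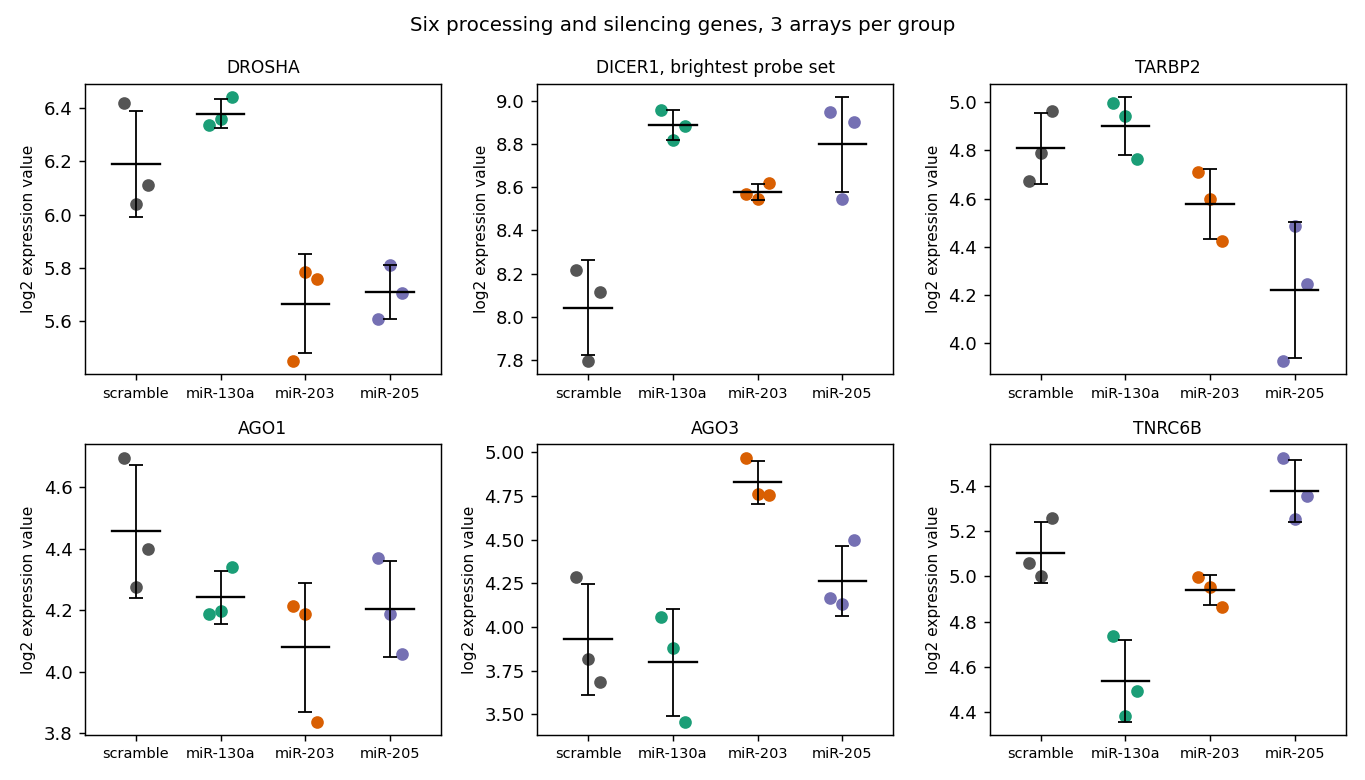
Log2 expression value of each array for the 6 genes with a probe set of their own, by group on the horizontal axis; points are arrays, lines the group mean and bars the standard deviation (n = 3), and each panel has its own vertical scale that does not start at 0. The scramble arrays of DICER1 lie below all others (highest 8.22, lowest with a microRNA 8.55), and DROSHA separates into high scramble and miR-130a arrays and low miR-203 and miR-205 arrays.

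DROSHA encodes the nuclease that opens the pathway in the nucleus. Its values were 6.42, 6.04 and 6.11 in the scramble arrays and 6.33, 6.36 and 6.44 in the miR-130a arrays. They were 5.45, 5.79 and 5.76 with miR-203 and 5.61, 5.81 and 5.71 with miR-205. The miR-203 and miR-205 arrays all lay below every scramble and miR-130a array, and the scramble and miR-130a arrays overlapped. DROSHA fell by 0.52 ± 0.11 with miR-203 (adjusted p = 0.00331) and by 0.48 ± 0.11 with miR-205 (adjusted p = 0.00766). With miR-130a it differed by 0.19 ± 0.11 (interval -0.05 to 0.43) and did not pass. Between microRNAs it was 0.71 ± 0.11 higher with miR-130a than with miR-203 (adjusted p = 0.00031) and 0.67 ± 0.11 higher than with miR-205 (adjusted p = 0.000608). The miR-203 and miR-205 levels differed by -0.04 ± 0.11 (interval -0.29 to 0.20).

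The probe sets annotated to both DGCR8, the RNA-binding partner of Drosha, and MIR1306, a microRNA gene, gave a call on 1 of the 3 that were tested. On 218650_at the scramble arrays gave 3.55, 3.36 and 3.51, and the miR-203 arrays 3.94, 3.92 and 3.67. These groups did not overlap, and the value rose by 0.37 ± 0.10 with miR-203 (adjusted p = 0.0156). Leaving out miR-203 replicate 1 or 2, or scramble replicate 2, or the filter on dim probe sets, ended the call (adjusted p from 0.0558 to 0.0612). On 64474_g_at the difference with miR-203 was 0.07 ± 0.11 (interval -0.16 to 0.30), and on 91617_at it was 0.03 ± 0.07 (interval -0.13 to 0.18). Over the 3 tested probe sets and the 3 comparisons with scramble, 1 of 9 values passed. Over all tested probe sets 21%, 33.6% and 23.8% passed with miR-130a, miR-203 and miR-205. The remaining 219811_at stayed between 2.37 and 2.42 on all arrays, under the array medians.

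DICER1 encodes the enzyme that cuts the hairpin to its mature length. On its brightest probe set (213229_at) the scramble arrays read 8.22, 7.79 and 8.12. The miR-130a arrays read 8.96, 8.82 and 8.88, the miR-203 arrays 8.57, 8.55 and 8.62, and the miR-205 arrays 8.95, 8.55 and 8.90. No array with a microRNA reached down to the scramble arrays. DICER1 rose by 0.85 ± 0.12 with miR-130a (1.80-fold, adjusted p = 0.000313), by 0.54 ± 0.12 with miR-203 (1.45-fold, adjusted p = 0.00419) and by 0.76 ± 0.12 with miR-205 (1.69-fold, adjusted p = 0.000604). Higher calls made up 11.1%, 15.9% and 11.3% of all tested probe sets in these comparisons.

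**Figure D2:**
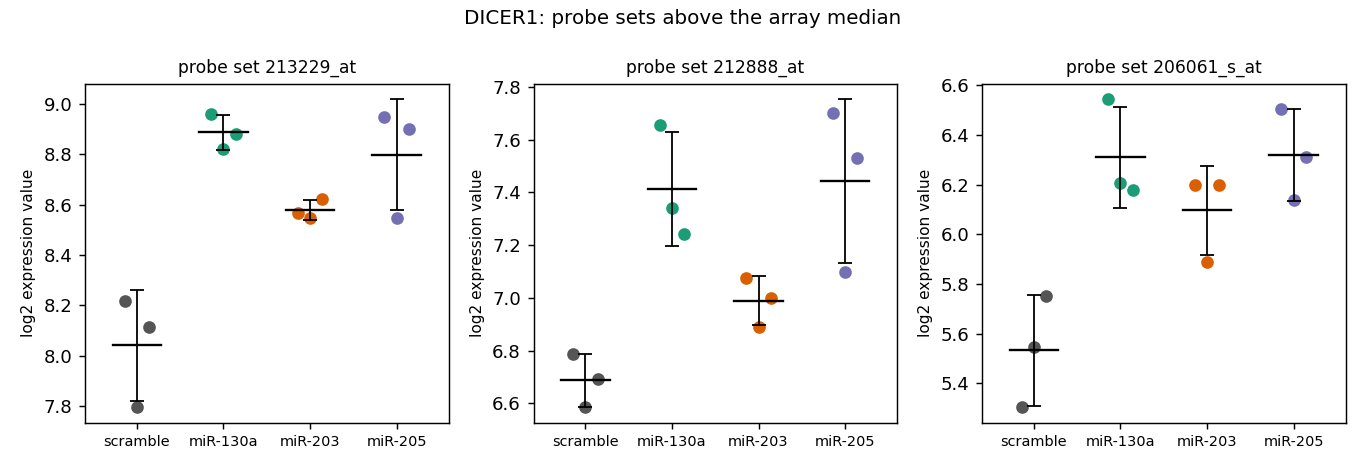
Log2 expression value of each array for the 3 DICER1 probe sets above the array median, by group; points are arrays, lines the group mean and bars the standard deviation (n = 3), with a separate vertical scale per panel that does not start at 0. In each panel every array with a microRNA lies above every scramble array, and the miR-203 arrays have the lowest group mean of the 3 microRNAs.

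The other measured DICER1 probe sets showed the same direction. On 212888_at the scramble arrays gave 6.79, 6.58 and 6.69, the miR-130a arrays 7.66, 7.34 and 7.24, the miR-203 arrays 7.08, 6.89 and 7.00, and the miR-205 arrays 7.70, 7.10 and 7.53. On 206061_s_at they gave 5.30, 5.54 and 5.75, then 6.54, 6.21 and 6.18, then 6.20, 5.89 and 6.20, and then 6.51, 6.14 and 6.31, in the same order of groups. Neither probe set showed overlap of a microRNA group with scramble. Over the 3 probe sets and 3 comparisons, 8 of 9 differences passed, beside 21%, 33.6% and 23.8% of all tested probe sets in these comparisons. The exception was 212888_at with miR-203, at 0.30 ± 0.14 (interval -0.01 to 0.61, adjusted p = 0.125), which passed with the replicate number as a block (adjusted p = 0.0438). The differences were 0.73 ± 0.14 and 0.76 ± 0.14 for 212888_at with miR-130a and miR-205. For 206061_s_at they were 0.78 ± 0.14 with miR-130a, 0.56 ± 0.14 with miR-203 and 0.79 ± 0.14 with miR-205. The miR-203 value of 206061_s_at was 0.36 with array weights (adjusted p = 0.0538) and missed the threshold without the filter on dim probe sets (adjusted p = 0.0519).

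Whether the DICER1 probe sets changed by equal amounts was tested on their differences within each array, in a limma fit over all 3248 such pairs of probe sets on the platform. None of the 12 DICER1 tests passed, of 2 pairs in 6 comparisons, and none of them had an unadjusted p under 0.05. The 2 largest were 212888_at minus 213229_at with miR-203 against scramble, at -0.24 ± 0.12 (interval -0.48 to 0.01, adjusted p = 0.276), and with miR-203 against miR-205, at -0.23 ± 0.12 (interval -0.48 to 0.01, adjusted p = 0.253). Among all pairs 1.35%, 7.42% and 2.68% differed with miR-130a, miR-203 and miR-205 against scramble. Between microRNAs the shares were 8% for miR-130a and miR-203, 5.26% for miR-130a and miR-205, and 12.6% for miR-203 and miR-205. Replicate 2 of the miR-205 group was the lowest of its group on all 3 DICER1 probe sets, at 8.55, 7.10 and 6.14.

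Between the microRNAs DICER1 was less clearly ordered. On the brightest probe set the mean was 8.89 ± 0.07 (SD, n = 3) with miR-130a, 8.80 ± 0.22 with miR-205 and 8.58 ± 0.04 with miR-203. The difference between miR-130a and miR-203 was 0.31 ± 0.12 with no overlap of arrays (adjusted p = 0.0575), and it passed in 7 of 22 other settings, among them the replicate block (adjusted p = 0.019). Removing miR-205 replicate 2, scramble replicate 1 or scramble replicate 2 made it pass (adjusted p from 0.0283 to 0.0477). On 212888_at that difference was 0.42 ± 0.14 (adjusted p = 0.0333), and miR-203 lay 0.45 ± 0.14 below miR-205 (adjusted p = 0.0265). The first of these was lost without miR-130a replicates 1 or 2 or miR-203 replicates 2 or 3 (adjusted p from 0.0556 to 0.143). The second was lost without miR-203 replicates 2 or 3 or miR-205 replicates 1 or 3 (adjusted p from 0.0564 to 0.118). With no filter on dim probe sets neither passed (adjusted p = 0.132 and adjusted p = 0.114). On the brightest probe set miR-203 against miR-205 was at -0.22 ± 0.12 (adjusted p = 0.173), and passed in 2 of 22 other settings. Neither difference passed on 206061_s_at. There miR-130a against miR-203 was at 0.21 ± 0.14 (adjusted p = 0.258) and miR-203 against miR-205 at -0.22 ± 0.14 (adjusted p = 0.249). DICER1 with miR-130a and miR-205 differed by 0.09 ± 0.12 (interval -0.17 to 0.35). The level with the mean of all 6 probe sets, 3 of them at the lowest value, rose by 0.40 with miR-130a, 0.24 with miR-203 and 0.38 with miR-205, all still past the threshold.

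TARBP2 encodes the double-stranded RNA-binding partner of Dicer. Its scramble arrays read 4.67, 4.79 and 4.96, its miR-130a arrays 5.0, 4.94 and 4.77, its miR-203 arrays 4.71, 4.60 and 4.42, and its miR-205 arrays 3.93, 4.49 and 4.25. The miR-205 arrays lay below all scramble arrays but overlapped those of miR-203. TARBP2 fell by 0.59 ± 0.13 with miR-205 (adjusted p = 0.00655), where 12.5% of all tested probe sets were lower. It differed by 0.09 ± 0.13 with miR-130a (interval -0.20 to 0.38) and by -0.23 ± 0.13 with miR-203 (interval -0.52 to 0.06). From high to low the order was miR-130a, scramble, miR-203 and miR-205, and only the first and second of these against miR-205 passed, at 0.68 ± 0.13 for miR-130a (adjusted p = 0.00183). The step from miR-203 to miR-205 was 0.36 ± 0.13 (adjusted p = 0.0534) and passed in 6 of 22 other settings. Among them were quantile normalization (adjusted p = 0.0348) and array weights (adjusted p = 0.0164). It also passed without miR-203 replicate 3 (adjusted p = 0.0412) or miR-205 replicate 2 (adjusted p = 0.0124). DICER1 and TARBP2 therefore had opposite signs with miR-205, one higher and one lower than scramble.

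Argonautes hold the mature strand. AGO1 and AGO3 are neighbours on chromosome 1, in the order AGO4, AGO1, AGO3, and they went opposite ways with miR-203. AGO3 read 4.29, 3.81 and 3.69 in scramble, 4.05, 3.88 and 3.46 with miR-130a, 4.97, 4.76 and 4.76 with miR-203, and 4.16, 4.13 and 4.50 with miR-205. The miR-203 arrays lay above all other arrays. AGO3 rose by 0.90 ± 0.17 with miR-203 (1.87-fold, adjusted p = 0.0017), and was 1.03 ± 0.17 lower with miR-130a than with miR-203 (a difference of -1.03, adjusted p = 0.000512). With miR-205 it differed from scramble by 0.33 ± 0.17 (interval -0.04 to 0.71), which passed only without scramble replicate 1, its highest scramble array (adjusted p = 0.0431). It was 0.57 ± 0.17 higher with miR-203 than with miR-205 (adjusted p = 0.0228), a call that ended when miR-203 replicate 1 or miR-205 replicate 1 or 2 was removed (adjusted p from 0.0778 to 0.0796) or with no filter on dim probe sets (adjusted p = 0.113).

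AGO1 read 4.70, 4.28 and 4.40 in scramble, 4.19, 4.20 and 4.34 with miR-130a, 4.22, 4.19 and 3.84 with miR-203, and 4.37, 4.19 and 4.06 with miR-205. The highest scramble array stood apart from the others, and only miR-203 had no overlap with scramble. AGO1 fell by 0.38 ± 0.13 with miR-203 (adjusted p = 0.0373). It no longer passed once miR-130a replicate 2, miR-203 replicate 3, scramble replicate 1 or scramble replicate 3 was removed (adjusted p from 0.0507 to 0.148), nor in 4 other settings (adjusted p from 0.0529 to 0.136). With miR-130a and miR-205 the differences were -0.21 ± 0.13 (interval -0.49 to 0.06) and -0.25 ± 0.13 (interval -0.53 to 0.02).

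The probe set annotated to both AGO2, the Argonaute that can cut its target, and CASC7 (213310_at) was also highest with miR-203. It read 5.82, 5.68 and 5.63 in scramble, 5.84, 5.90 and 5.97 with miR-130a, 6.58, 6.31 and 6.49 with miR-203, and 5.99, 5.80 and 6.12 with miR-205. The miR-203 arrays lay above all others, by 0.75 ± 0.10 over scramble (1.68-fold, adjusted p = 0.000104), and by 0.49 ± 0.10 over miR-205 (adjusted p = 0.00188). The miR-130a arrays lay just above scramble without overlap, at 0.19 ± 0.10 (adjusted p = 0.193). The miR-205 difference was 0.26 ± 0.10 (interval 0.05 to 0.47, adjusted p = 0.0734), and passed with array weights (adjusted p = 0.0201) and without miR-205 replicate 2 (adjusted p = 0.028). The signals of the 2 annotated genes cannot be told apart on this probe set.

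**Figure D3:**
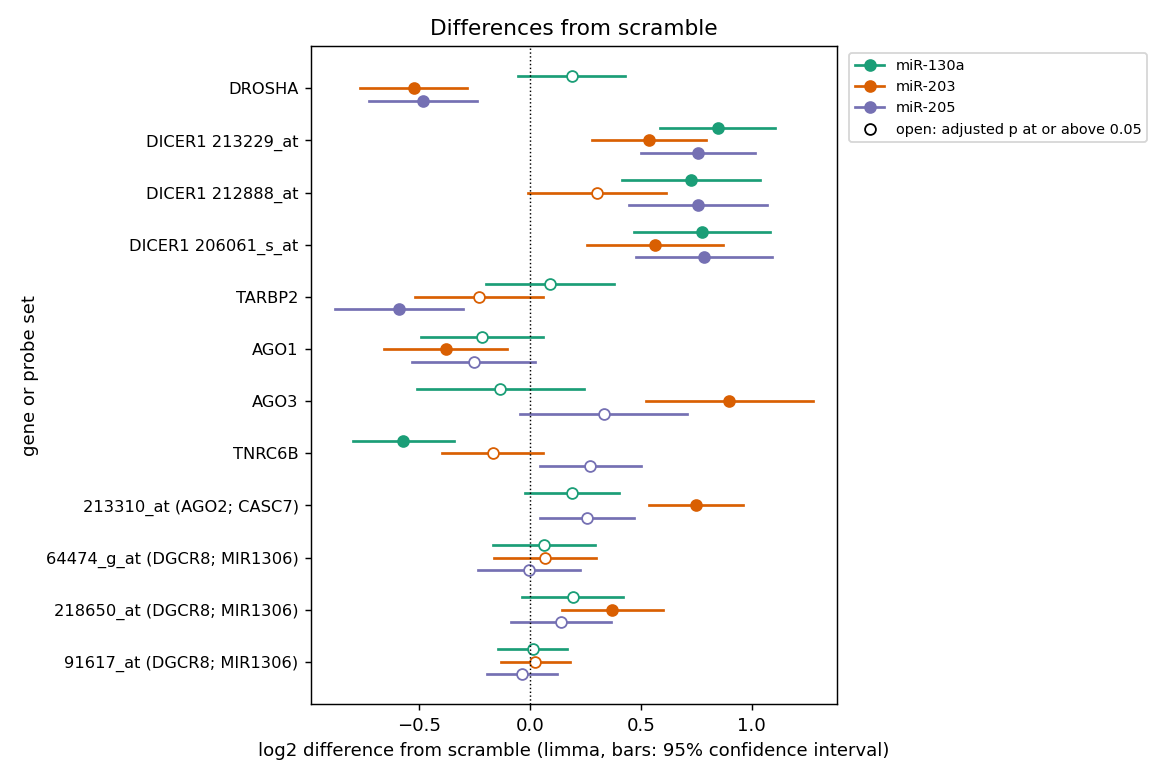
Log2 difference from scramble for the 12 tested probe sets (vertical axis), with 95% confidence intervals from limma; colours mark the microRNA, filled points have an adjusted p under 0.05 and open points do not. The DICER1 points all lie right of 0, the DROSHA points of miR-203 and miR-205 lie left of it at -0.52 and -0.48, and the largest value shown is AGO3 with miR-203 at 0.90.

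TNRC6B encodes a GW182 protein, the scaffold through which Argonaute recruits deadenylases. Its scramble arrays read 5.06, 5.0 and 5.26, its miR-130a arrays 4.73, 4.38 and 4.49, its miR-203 arrays 5.0, 4.95 and 4.87, and its miR-205 arrays 5.53, 5.25 and 5.36. The miR-130a arrays lay below all others and the miR-205 arrays overlapped scramble. TNRC6B fell by 0.57 ± 0.10 with miR-130a (adjusted p = 0.00211), where 9.82% of all tested probe sets were lower. With miR-203 it differed by -0.17 ± 0.10, without overlap but past no threshold (interval -0.39 to 0.06), and with miR-205 by 0.27 ± 0.10 (interval 0.05 to 0.50, adjusted p = 0.0797). The highest miR-203 array (4.999) lay only just under the lowest scramble array (5.004). Among the 3 microRNAs each step passed: miR-130a lay below miR-203 (difference -0.40 ± 0.10, adjusted p = 0.00869) and below miR-205 (difference -0.84 ± 0.10, adjusted p = 6.11e-05), and miR-203 below miR-205 (difference -0.44 ± 0.10, adjusted p = 0.00593). The order from low to high was therefore miR-130a, miR-203, scramble and miR-205, in which the neighbours of scramble did not pass against it.

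Between microRNAs, 3 of the 6 genes differed between miR-130a and miR-203 (DROSHA, AGO3 and TNRC6B), 3 between miR-130a and miR-205 (DROSHA, TARBP2 and TNRC6B) and 2 between miR-203 and miR-205 (AGO3 and TNRC6B). The shares over all tested probe sets were 38%, 30.7% and 35.1%. AGO3 with miR-130a against miR-205 was at -0.47 ± 0.17 with no overlap of arrays (adjusted p = 0.0588), and passed in 5 of 22 other settings, among them the replicate block (adjusted p = 0.0468) and the fits without miR-130a replicate 1 (adjusted p = 0.0352) or scramble replicate 1 (adjusted p = 0.0305). TARBP2 with miR-130a against miR-203 was at 0.32 ± 0.13 with no overlap (adjusted p = 0.0731), and passed in 4 settings, among them those without miR-205 replicate 1 (adjusted p = 0.0361) or miR-205 replicate 2 (adjusted p = 0.0434). DROSHA with miR-203 and miR-205 differed by less than its SE.

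Of the 6 genes with a probe set of their own, TNRC6B, DICER1 and DROSHA had the smallest F-test p, and the profiles closest to theirs were sought over the 12 arrays, each profile centred on its own mean, among 6826 other genes. The genes found were picked for this closeness on the same arrays. Their differences from scramble therefore resemble those of the member by the choice and are no separate result. Closest to TNRC6B was IL6ST, a cytokine receptor subunit, with a root mean square difference of 0.09 log2 beside a median of 0.37 over all genes, followed by EFR3A and ADAMTS1 (0.11 and 0.13). IL6ST differed from scramble by -0.45 ± 0.11 with miR-130a and 0.28 ± 0.11 with miR-205. The miR-205 value of IL6ST did not pass, but did in 3 of 20 other settings. Closest to DICER1 was LRRFIP2 (0.12 beside a median of 0.41), with differences of 0.63 ± 0.11, 0.42 ± 0.11 and 0.66 ± 0.11 for miR-130a, miR-203 and miR-205, and the third was CROT (0.13). The second closest, a Y-linked gene, is not reported here. Closest to DROSHA were NSD2, NUP85 and ARHGAP1 (0.10, 0.11 and 0.11 beside a median of 0.38). NSD2, a histone methyltransferase gene, differed by 0.29 ± 0.10, -0.45 ± 0.10 and -0.46 ± 0.10 for miR-130a, miR-203 and miR-205. The miR-130a value of NSD2 did not pass, but did in 7 of 20 other settings.

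Beyond the members, 72 other genes that process, load, export, degrade or act with microRNAs were listed by role. Of these 52 had a probe set of their own and 48 were bright enough to be tested, while LIN28A, AGO4, LIMD1 and DDX6 were dim. With miR-130a 5 rose and 6 fell, with miR-203 8 rose and 9 fell, and with miR-205 5 rose and 7 fell. Over all tested probe sets higher and lower calls made up 11.1% and 9.82% with miR-130a, 15.9% and 17.7% with miR-203, and 11.3% and 12.5% with miR-205. The counts of the 48 genes lay near these shares, and the lists by role hold 3 to 12 tested genes each, so their counts are given as a description beside the same shares. The median differences were 0.06, 0.00 and -0.02, so the list as a whole lay near the medians of all probe sets.

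Among Microprocessor cofactors 1 of 6 rose with miR-130a, 2 fell with miR-203 and 1 fell with miR-205, where 11.1% of all tested probe sets were higher with miR-130a, and 17.7% and 12.5% lower with miR-203 and miR-205. ADAR, which edits adenosines in double-stranded RNA, rose by 0.46 ± 0.09 with miR-130a (adjusted p = 0.00235). ILF2 fell by 0.26 ± 0.07 with miR-203 and by 0.31 ± 0.07 with miR-205. KHSRP, which binds microRNA precursors, fell by 0.44 ± 0.12 with miR-203 (adjusted p = 0.0149), but not without scramble replicate 2 (adjusted p = 0.0629).

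All 4 genes of nuclear export were tested. Of these, 1 rose with miR-130a, 2 rose and 2 fell with miR-203, and 1 rose and 2 fell with miR-205. Over all tested probe sets 11.1% were higher with miR-130a, 15.9% higher and 17.7% lower with miR-203, and 11.3% and 12.5% with miR-205. RAN rose by 0.21 ± 0.06 with miR-203 (adjusted p = 0.0203) and did not pass with miR-130a or miR-205. It was not run in the alternative settings. The export receptor XPO1 rose by 0.47 ± 0.07 with miR-130a and by 0.29 ± 0.07 with miR-203. With miR-205 XPO1 differed by 0.21 ± 0.07 (adjusted p = 0.0358), which did not hold with the replicate block (adjusted p = 0.0523) or without any 1 of the miR-205 arrays or scramble replicates 2 or 3 (adjusted p from 0.0677 to 0.12). The Ran regulators RANGAP1 and RANBP1 fell by 0.60 ± 0.09 and 0.41 ± 0.08 with miR-203, and by 0.37 ± 0.09 and 0.36 ± 0.08 with miR-205. With the other 6 arrays left out of the fit, RANGAP1 with miR-205 was at adjusted p = 0.0534.

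Among 10 Dicer partners and loading factors, PRKRA, a double-stranded RNA-binding partner of Dicer like TARBP2, fell by 0.56 ± 0.10 with miR-130a and by 0.40 ± 0.10 with miR-205. It differed by 0.06 ± 0.10 with miR-203. The chaperone gene HSP90AA1 rose by 0.36 ± 0.07 with miR-130a, and the co-chaperone gene FKBP4 rose by 0.39 ± 0.09 with miR-205. In this list 1 rose and 1 fell with miR-130a, 1 and 1 with miR-203, and 1 and 2 with miR-205, of 10 genes in each case. These counts lay near the shares over all tested probe sets, 11.1% higher and 9.82% lower, 15.9% and 17.7%, and 11.3% and 12.5%. Of the lower calls, FKBP4 with miR-203 (-0.27 ± 0.09) ended without miR-203 replicate 3 or scramble replicates 1 or 2 (adjusted p from 0.0714 to 0.114), and HSP90AA1 with miR-205 (-0.21 ± 0.07, adjusted p = 0.0496) ended when any array but miR-203 replicate 1 was removed (adjusted p from 0.0531 to 0.151). PRKRA with miR-205 was at adjusted p = 0.0546 when fitted on its 6 arrays alone.

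Of 6 Argonaute-associated genes, 2 fell with miR-130a, 2 rose and 1 fell with miR-203, and 1 fell with miR-205. Over all tested probe sets 9.82% were lower with miR-130a, 15.9% higher and 17.7% lower with miR-203, and 12.5% lower with miR-205. The RNA-binding FXR1 rose by 0.27 ± 0.06 with miR-203, and EIF6 fell by 0.44 ± 0.10 with miR-205. With miR-130a EIF6 differed by -0.35 ± 0.10 (adjusted p = 0.0228), and missed the threshold without miR-130a replicates 1 or 3 or scramble replicates 1 or 3 (adjusted p from 0.0501 to 0.0869). FMR1 fell by 0.51 ± 0.16 with miR-203 (adjusted p = 0.0261), a call that needed miR-203 replicate 1 (difference -0.31 when removed), scramble replicate 2 and scramble replicate 3 (adjusted p from 0.0611 to 0.0949). The miR-203 calls of FMR1, KHSRP and FKBP4 also ended with no filter on dim probe sets or with the other 6 arrays left out (adjusted p from 0.0684 to 0.121). Of 3 tailing and turnover genes 1 rose with miR-205, and 0 passed with miR-130a or miR-203. Over all tested probe sets 11.3% were higher with miR-205, and 21% and 33.6% passed with miR-130a and miR-203. The gene that rose was TUT7, a terminal uridylyltransferase, by 0.75 ± 0.17 with miR-205 (adjusted p = 0.00688, or 0.0535 with no filter on dim probe sets). With miR-130a TUT7 differed by 0.46 ± 0.17 (adjusted p = 0.0772), and passed with the replicate block (adjusted p = 0.0356) and with arrays weighted (adjusted p = 0.0412). Without scramble replicate 1 it was 0.65 (adjusted p = 0.0136).

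Of 12 deadenylation genes, 1 rose and 2 fell with miR-130a, 2 rose and 3 fell with miR-203, and 2 rose with miR-205. The shares over all tested probe sets were 11.1% higher and 9.82% lower with miR-130a, 15.9% and 17.7% with miR-203, and 11.3% higher with miR-205. TOB1, which links deadenylases to messenger RNAs, rose by 0.47 ± 0.07, 0.88 ± 0.07 and 0.74 ± 0.07 with miR-130a, miR-203 and miR-205. The deadenylase gene CNOT6 fell by 0.44 ± 0.07 with miR-130a and by 0.39 ± 0.07 with miR-203, and rose by 0.45 ± 0.07 with miR-205. CNOT4 rose by 0.58 ± 0.11 with miR-203. Of 7 decapping and decay genes, 1 rose and 1 fell with miR-130a, 1 rose with miR-203 and 1 fell with miR-205. The shares over all tested probe sets were 11.1% higher and 9.82% lower with miR-130a, 15.9% higher with miR-203 and 12.5% lower with miR-205. DCP2, the decapping enzyme, fell by 0.72 ± 0.11 with miR-130a and by 0.56 ± 0.11 with miR-205, and LSM1 rose by 0.35 ± 0.07 with miR-203. DCP1A differed by 0.34 ± 0.11 with miR-130a (adjusted p = 0.0449), lost without any 1 of 8 arrays (adjusted p from 0.0502 to 0.169).

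**Figure D4:**
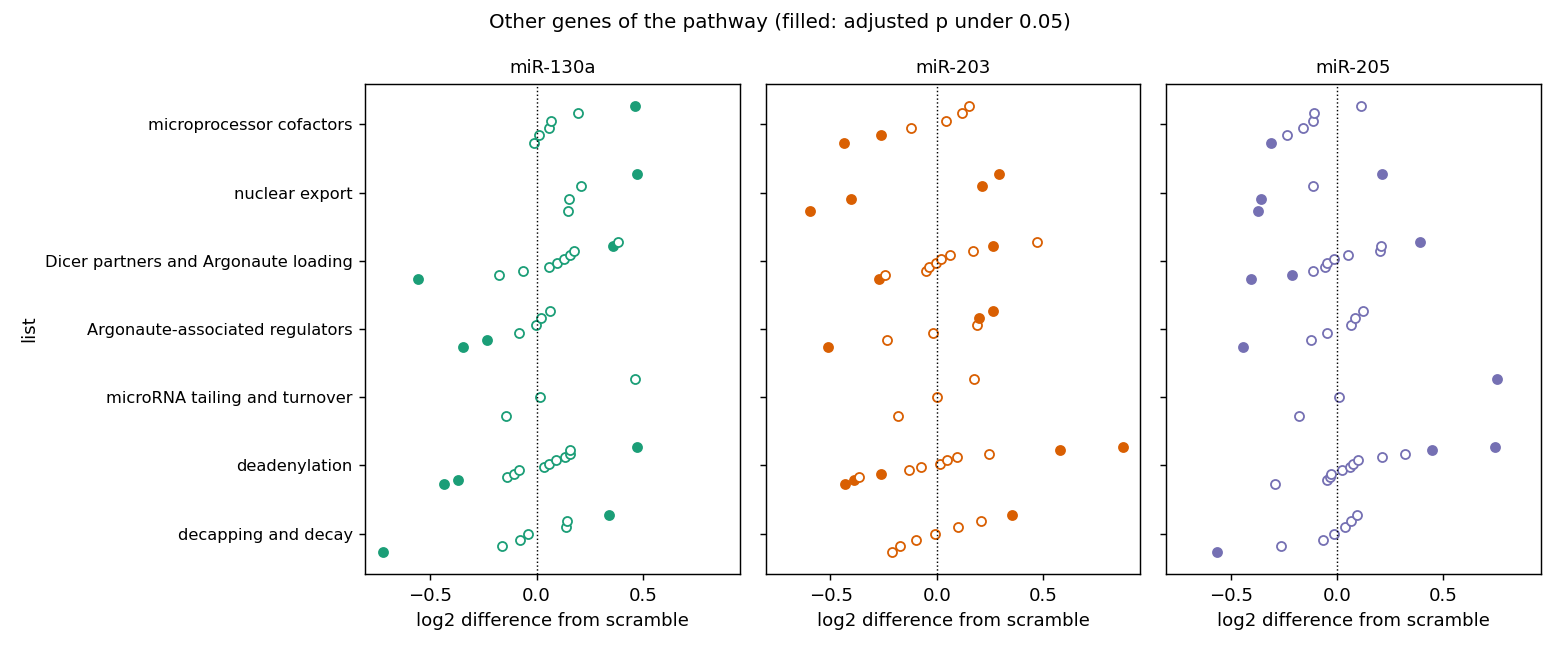
Log2 difference from scramble of each tested gene in 7 lists of other pathway genes (vertical axis), 1 panel per microRNA; filled points have an adjusted p under 0.05, open points do not. Points lie on both sides of 0 in most lists, with the TOB1 point at the right of the deadenylation row in each panel (0.47, 0.88 and 0.74).

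The cell type was checked on markers. All 7 luminal prostate markers named on the arrays lay above the median on all 12 arrays, and 10 of 11 markers of other cell types (leukocyte, endothelial, stromal, basal and neuroendocrine) on none. The exception was COL3A1, above the median on 2 of 3 miR-130a arrays. The summed log2 value of the luminal markers was 57.6 to 58.7 in scramble arrays, 57.9 to 58.2 with miR-130a and 58.7 to 59.4 with miR-205. With miR-203 it was 53.4 to 54.2, lower than on every other array. Of the 7 markers 4 fell with miR-203 and 0 rose, where 17.7% of all tested probe sets were lower and 15.9% higher. The androgen-responsive KLK2, TMPRSS2 and KLK3 made up most of the lower sum, at -1.60, -1.30 and -1.24. The keratin gene KRT18 also fell, at -0.26 (adjusted p = 0.0283). KRT8, FOLH1 and HOXB13 differed by -0.24, 0.24 and 0.03 without passing. The summed value of the markers of other cell types was 26.0 to 26.1 in scramble arrays and 26.2 to 26.4 with miR-130a. It was 26.1 to 26.4 with miR-203 and 26.1 to 26.2 with miR-205. The part of the lower luminal sum in the miR-203 values of AGO1, AGO3, DROSHA and DICER1 was not tested. In bulk RNA, fewer cells expressing a gene and less RNA per cell cannot be told apart.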

How the data were processed

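Total RNA of 12 LNCaP cultures was measured on arrays, and the authors deposited 1 table of log2 values for 22277 probe sets. Per the submitters' processing notes RMA, limma and R 2.9.0 were used; which step each served is not stated there. The number of arrays limits the precision. The 62 control probe sets were left out. Array medians lay between 2.75 and 2.77. Arrays of 1 group correlated over probe sets with r from 0.996 to 0.999, arrays of different groups from 0.986 to 0.994, and no columns were identical.

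Gene symbols came from GEO's platform annotation (19064 with 1 symbol, 1043 with several, 2108 with none), and 0 symbols changed through RefSeq identifiers (GRCh38.p14). Group means over 12 arrays were fitted with limma 3.58.1 in R 4.3.3 with eBayes moderation (residual degrees of freedom 8, prior 4.41), two-sided and adjusted within each of 6 comparisons. The same fit on within-array differences of probe sets tested their agreement. The procedure was tested on simulated data. An exact test of 3 arrays against 3 cannot give p under 0.1 and was not used.

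Alternatives were other filters, quantile normalization, fits of the 6 arrays compared, 1 probe set per gene, array weights, a trended prior, the replicate number as a block, other ways to represent a gene, and leaving out each array. Named genes are all members, the 3 largest calls of each list, RAN, and the 3 closest profiles to 3 members. The members and lists were chosen with earlier results of these data known.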

Additional observations from a re-analysis of the deposited data

How the results depend on the processing

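Of 28 called differences of member probe sets, 22 kept direction and call in every alternative run, 6 lost the call in at least 1, and 10 of 44 that had not passed gained one; 0 reversed. Among other named genes 40 of 54 calls were kept in all and 14 lost in some, with 0 reversed. The count of member genes changed was 2 with miR-130a, 3 to 4 with miR-203 and 3 to 4 with miR-205 as each array was left out. Over the same settings the probe sets changed against scramble numbered 1738 to 2579 (miR-130a), 3191 to 3800 (miR-203) and 1961 to 2910 (miR-205). They numbered 3582 to 4449 between miR-130a and miR-203, 2741 to 3698 between miR-130a and miR-205, 3218 to 4078 between miR-203 and miR-205, and 5812 to 6517 for any difference. With 1 probe set per gene, which tests fewer features, 2466 genes differed with miR-203, 1781 with miR-205, 2807, 2293 and 2583 between the microRNAs in the same order, and 4149 in any way.

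Pairs of probe sets with unequal change against scramble numbered 44, 241 and 87 for miR-130a, miR-203 and miR-205, and 22 to 58, 124 to 232 and 31 to 123 as arrays were left out. With probe sets above the median on all 12 arrays they numbered 20 (miR-130a) and 56 (miR-205), from fewer pairs.

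The replicate numbers are shared between groups, and the labels do not say what same-numbered samples have in common. Of 18 same-numbered pairs 2 had deviations correlated over 0.1 (r from -0.10 to 0.30, beside -0.27 to 0.16 for pairs with different numbers). Even so, 10 of 12 arrays correlated best with their own number. Whether these samples were paired was not tested, and the main fit does not use the number. With the replicate block 2409 probe sets changed with miR-130a, 3837 with miR-203 and 2679 with miR-205, and the counts of member genes stayed at 2, 4 and 3.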
